A study of Gossypium hirsutum with 12 samples.

Results

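Primary root tips of upland cotton that had spent 48 h at a water potential of -1.0 MPa (WS48) were compared with well-watered tips harvested at 24 h (WW24), the developmental control of the study. The comparison takes 6 of the 12 cotton RNA-seq libraries, the 3 of WS48 and the 3 of WW24, chosen by the treatment and time given in their labels. Both groups are of genotype AU90810, grown in the dark in vermiculite, and the WS48 tips were the apical 6 mm while the WW24 tips were the apical 12 mm of roots at -0.02 MPa. According to the methods of the study, each sample pooled tips of many seedlings and the replicates of a group came from independent experiments. The 24 h control was chosen because slowly growing stressed roots reach at 48 h about the length that watered roots have at 24 h, so WS48 and WW24 differ in treatment, in age and in the length of tissue taken, and these cannot be told apart in this contrast.

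When soil dries, plant roots make more abscisic acid (ABA), a hormone bound by PYR1-like receptors, which then hold back the PP2C phosphatases that otherwise keep the ABA response off. Root cells under water deficit also accumulate compatible solutes such as proline and sugars, which hold water in the cell, and loosen or stiffen their walls as growth near the tip goes on at a lower rate. The elongation zone lies between the dividing cells at the tip and the part of the root where root hairs, phloem and lignified xylem mature, so the distance from the tip sets which cell types a sample holds.

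Counts of reads in genes numbered 10186089, 10617773 and 9190346 in the WS48 libraries and 8524632, 8132845 and 11316010 in the WW24 libraries. WW24 replicate 2 stood apart from the other WW24 libraries in these counts. Of 41816 genes with a mean of at least 1 CPM (counts scaled to a common library size after TMM), it lay over 2-fold above both other WW24 libraries at 4141 genes (9.90%) and over 2-fold below both at 3017 (7.21%). The largest such numbers for WW24 replicates 1 and 3 were 68 above and 480 below. Among the WS48 libraries, replicate 2 was over 2-fold above both others at 930 genes, and the remaining numbers were between 27 and 122. The chi-square of the counts per degree of freedom was 2.03 to 6.77 between WS48 libraries, whereas it was 32.3 and 30.6 in the WW24 pairs that hold replicate 2 and 3.16 between WW24 replicates 1 and 3. The weight that limma gave WW24 replicate 2 from its fit to the model was 0.131, against 0.773 to 1.73 for the WS48 libraries and 0.980 and 2.58 for WW24 replicates 1 and 3. Counts of genes are therefore given with and without this library, as are the fold changes of single genes that it moved by over 1.5-fold. Whether this library is what its label says was not tested, and it enters every value given with all libraries.

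**Figure D1:**
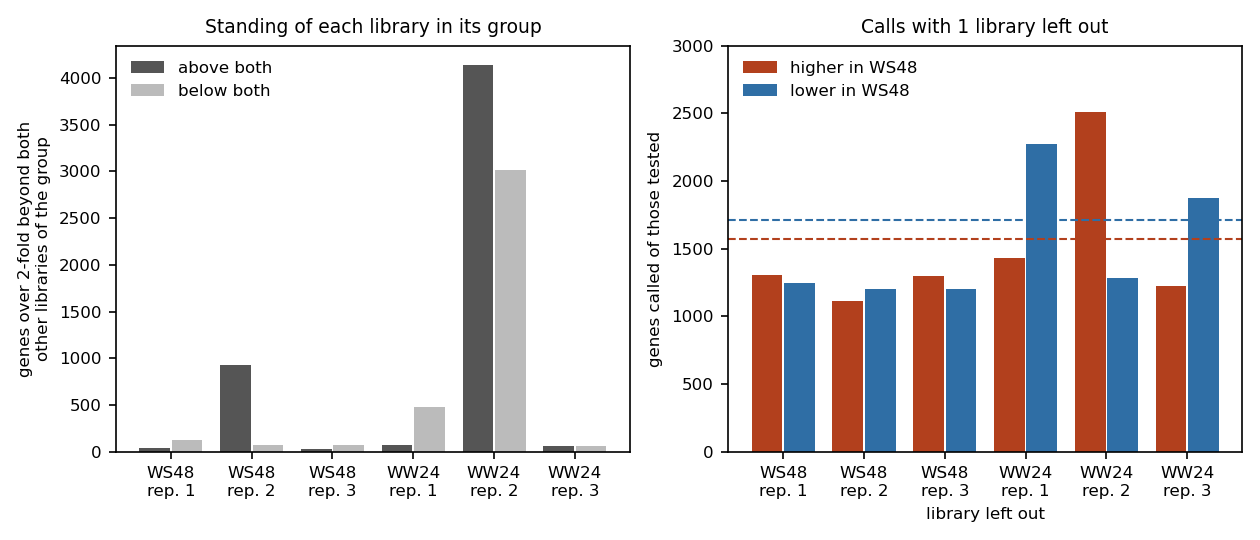
Left, number of genes (of 41816 with a mean of at least 1 CPM) at which each library lies over 2-fold above or below both other libraries of its group; right, number of the 43938 genes tested that were called higher or lower in WS48 when the library named on the axis was left out, with dashed lines at the numbers from all libraries (1569 higher, 1713 lower). WW24 replicate 2 is over 2-fold above its mates at 4141 genes, and leaving it out is the only one of the 6 omissions that takes the higher calls above the dashed line.

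With all libraries, 1569 of 43938 genes tested were higher in WS48 than in WW24 (3.57%) and 1713 were lower (3.9%), by edgeR's quasi-likelihood test (adjusted p at or under 0.05, change of at least 1 on the log2 scale). Together these were 3282 genes (7.47%). The WS48 and WW24 libraries did not overlap at 1548 of the higher and 1691 of the lower genes. Over all genes tested, the WS48 libraries lay above all WW24 libraries at 15.4% and below all of them at 14.9%. Without WW24 replicate 2, the same test called 2507 higher (5.71%) and 1284 lower (2.92%), or 3791 in all (8.63%), so that the share of higher genes among the calls was 66.1% in place of 47.8%. Scaling by library size alone, in place of TMM, gave 2258 higher and 1315 lower genes (63.2% higher) and put the median of the log2 fold changes over all genes at 0.17, against 0.01 with TMM.

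Most calls were also made without WW24 replicate 2, and those lost or gained without it were unevenly spread over the directions. Of the 1569 higher genes, 1374 (87.6%) were also called without it and 195 were not. A further 1133 genes were called higher only without it, of which 710 had a log2 fold change under 1 with all libraries and 423 had missed the p alone. Of the 1713 lower genes, 1094 (63.9%) were also called without it and 619 were not, 502 of these because the fold change came out under the threshold, and 190 lower genes were gained. No gene was called in opposite directions by the fits. Leaving out another WS48 or WW24 library gave 1112 to 1429 higher and 1198 to 2273 lower calls. Those fits kept fewer of the 1569 higher calls, 66.6 to 77.1%. Of the 1713 lower calls, 64.3 to 67.8% were kept without a WS48 library, and 93.3% and 90.7% without WW24 replicates 1 and 3. Losses of this number were therefore not particular to WW24 replicate 2, but they differed in kind. Without WS48 replicates 1, 2 and 3, 551, 611 and 572 lower calls were lost, of which 501, 501 and 500 missed the p alone. Without WW24 replicates 1 and 3, 114 and 160 lower calls were lost. Loss of lower calls mainly through the fold change was thus seen only without WW24 replicate 2. Gained higher genes numbered 67 to 248 in those fits, against the 1133 without WW24 replicate 2. The lower calls numbered 2273 without WW24 replicate 1 and 1874 without replicate 3, when replicate 2 makes up a larger part of the control.

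At the genes that turned on WW24 replicate 2, this library lay mostly on one side of its mates, since leaving out a high control lowers the control mean and leaving out a low one raises it. It was above both other WW24 libraries at 1123 of the 1133 gained higher genes, by over 2-fold at 701 of them, and at 613 of the 619 lost lower genes. It was below both at 153 of the 195 lost higher and at 183 of the 190 gained lower genes. Over all genes tested it was above both at 46.5% and below both at 41.4%. The plot of the fold changes with and without WW24 replicate 2 shows the gained higher genes as a cloud above the diagonal, and the lost lower genes as one just inside the fold threshold.

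**Figure D2:**
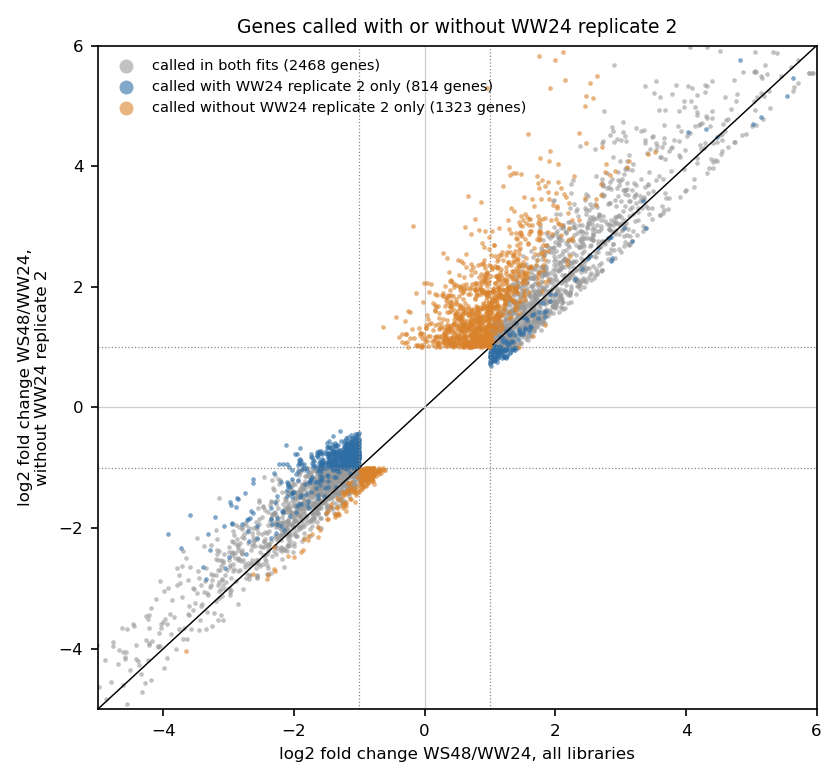
Log2 fold change WS48/WW24 of the 4605 genes called with or without WW24 replicate 2, with all libraries on the x axis and without WW24 replicate 2 on the y axis; 156 genes lie outside the axes, dotted lines mark the fold threshold of 1 and the diagonal marks equal values. The 2468 genes called in both fits follow the diagonal, the 1323 gained ones lie mostly above it on the higher side, and the 814 lost ones lie mostly above it on the lower side.

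Among the genes of ABA signaling, receptors were lower and most phosphatases higher in WS48, and none of these calls turned on WW24 replicate 2. The gene groups here and in what follows were formed from the functions in the study's tables. Most of these list transcripts the study had picked on these same libraries as changed against this control and the 48 h control. Genes that did not change are therefore mostly missing, and the counts are not independent evidence of a change or its direction. Of all 1545 tested genes with a function, 510 were higher and 716 lower with all libraries, and 501 and 525 without replicate 2. Of 9 genes of ABA synthesis and breakdown, 6 rose and 2 fell with and without replicate 2. This count does not separate synthesis from breakdown, which act on the hormone in opposite ways. Nine-cis-epoxycarotenoid dioxygenase 3 (Gh_A13G1311), the cleavage enzyme that limits ABA synthesis, had 9.76, 9.09 and 10.4 CPM in the WS48 libraries, against 0, 0.574 and 0 CPM in the WW24 libraries. Its only WW24 reads came from replicate 2, so that without replicate 2 it was at 0 in the control. With all libraries its log2 fold change was 5.85 ± 0.66 (SE derived from the test statistic, adjusted p = 0.000176, edgeR). All 9 PYR1-like receptors tested fell, with a median log2 fold change of -3.19. The median was 0.01 over all genes tested and -1.27 over those with a function in the study's table of changed transcripts. PYR1-like 6 (Gh_A06G1418) had 1.82, 4.19 and 1.27 CPM in WS48 and 37.8, 42.3 and 30.0 CPM in WW24, where replicate 2 lay close to the other libraries (log2 fold change -3.89 ± 0.32, adjusted p = 1.48e-05, edgeR). Another PYR1-like 6 gene (Gh_D06G1764) held 2 reads in all WS48 libraries together, against 427 in WW24, a ratio of 255 in favour of WW24 (95% exact counting interval 70.2 to 2114, which covers counting error only).

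Of 16 PP2C genes, of the family that holds negative regulators of the pathway, 13 rose and 3 fell, again the same numbers without WW24 replicate 2 (median log2 fold change 2.92). Which of the 16 act in ABA signaling was not tested. Protein phosphatase 2CA (Gh_D04G0015) had 58.4, 44.7 and 50.8 CPM in WS48, against 0.122, 0 and 0.183 CPM in WW24 (adjusted p = 7.95e-08, edgeR). With 3 WW24 reads in all, the ratio of its levels was 445, with a counting interval of 152 to 2158. Highly ABA-induced PP2C gene 2 (Gh_D05G3907) had 25.4, 19.8 and 19.3 CPM in WS48 and 0.733, 0.430 and 0.183 CPM in WW24 (log2 fold change 5.61 ± 0.30, adjusted p = 1.1e-06, edgeR). No WS48 library came near a WW24 library at either gene. The 16 ABA response genes split evenly, with 8 higher and 8 lower in both fits. AFP2 (Gh_A13G0736), a protein that in Arabidopsis restrains the ABA factor ABI5, rose by 2.60 ± 0.27 on the log2 scale, and an ABA-responsive GRAM domain gene (Gh_A12G1208) fell by 3.54 ± 0.27 (adjusted p = 8.52e-05 and 9.02e-06, edgeR).

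**Figure D3:**
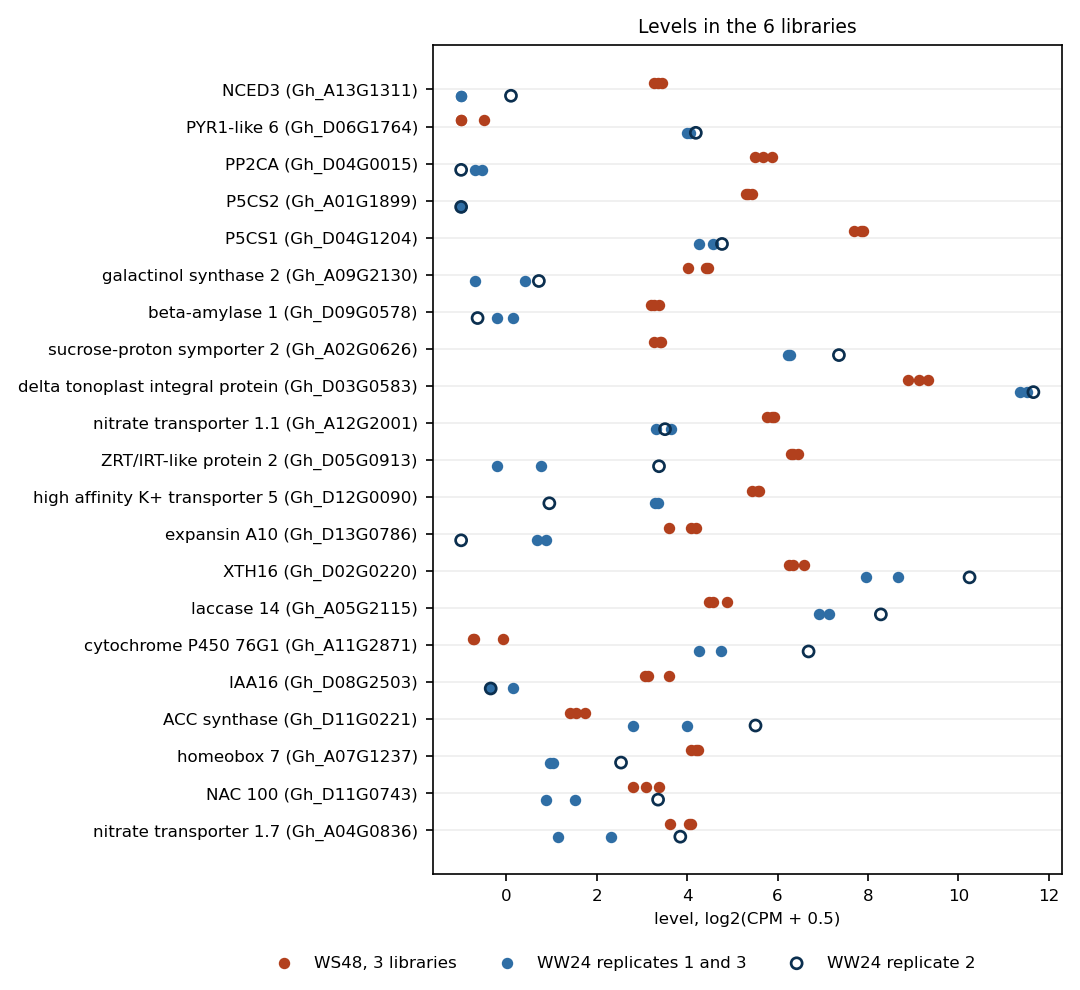
Level of 21 named genes in each of the 6 libraries as log2(CPM + 0.5), with the WS48 libraries drawn above the WW24 libraries of the same gene and WW24 replicate 2 as an open circle. At PYR1-like 6, PP2CA and nitrate transporter 1.1 the open circle lies with or beside the other WW24 libraries, at ZRT/IRT-like protein 2 and XTH16 it lies apart from them, and at NAC 100 and nitrate transporter 1.7 it lies among the WS48 libraries.

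Genes of proline synthesis were higher in WS48 throughout, and the larger part of the sucrose, starch and raffinose genes were too. All 5 proline genes tested rose in both fits (median log2 fold change 3.29). Delta 1-pyrroline-5-carboxylate synthase 2 (P5CS2, Gh_A01G1899), of the enzyme that commits glutamate to proline, had 42.9, 40.2 and 38.7 CPM in WS48 and no read in any WW24 library, so that it was at least 353-fold higher (3 counts over the group; adjusted p = 5.64e-06, edgeR). A P5CS1 gene (Gh_D04G1204) had 236, 230.0 and 207 CPM in WS48, against 23.2, 26.8 and 18.7 CPM in WW24 (log2 fold change 3.29 ± 0.16, adjusted p = 4.9e-07, edgeR). Another P5CS1 gene (Gh_A04G1396) had 151, 177 and 139 CPM in WS48 and 20.8, 4.16 and 20.5 CPM in WW24. Here replicate 2 was the low control, and the log2 fold change was 3.34 ± 0.40 with it and 2.92 ± 0.14 without it. Proline transporter 2 (Gh_A10G2054), at which replicate 2 was the high control, rose by 2.40 ± 0.32 with it and by 2.92 ± 0.25 without it on the log2 scale (adjusted p = 0.000552 and 7.29e-06, edgeR).

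Of 20 sucrose and starch genes, 17 rose and 3 fell with all libraries, and 14 rose and 2 fell without WW24 replicate 2. Enzymes of starch breakdown went both ways. Beta-amylase 1 (Gh_D09G0578) had 9.85, 9.09 and 8.76 CPM in WS48 and 0.611, 0.143 and 0.367 CPM in WW24 (log2 fold change 4.55 ± 0.28, adjusted p = 3.6e-06, edgeR). A chloroplast beta-amylase (Gh_D12G2112) had 0.383, 0.267 and 0.211 CPM in WS48 and 16.4, 8.32 and 13.9 CPM in WW24 (-5.42 ± 0.39, adjusted p = 6.95e-06, edgeR). Of 14 raffinose and trehalose genes, 10 rose and 4 fell (10 and 3 without replicate 2). Galactinol synthase 2 (Gh_A09G2130), the first step towards raffinose, had 20.9, 15.7 and 21.5 CPM in WS48 and 0.122, 1.15 and 0.825 CPM in WW24. Its groups lay far apart (log2 fold change 4.78 ± 0.38, adjusted p = 1.23e-05, edgeR). Among 17 LEA and dehydrin genes, whose products shield proteins and membranes in drying cells, 14 rose and 3 fell, and without replicate 2 the risers numbered 11. Heat shock proteins and chaperones were split, with 8 higher and 10 lower of 19 (8 and 7 without replicate 2).

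Carriers for sugars and water were mostly lower in WS48, and those for metals and other ions mostly higher. Of 12 sugar carriers, 11 fell and 1 rose (10 and 1 without WW24 replicate 2; median log2 fold change -2.40). Sucrose-proton symporter 2 (Gh_A02G0626), which loads sucrose into the phloem, had 10.2, 9.09 and 10.1 CPM in WS48 and 74.2, 164 and 77.2 CPM in WW24. Replicate 2 was the highest control, and the fold change on the log2 scale was -3.42 ± 0.31 with it and -2.94 ± 0.18 without it (adjusted p = 3.44e-05 and 5.35e-07, edgeR). The one that rose, glucose-6-phosphate/phosphate translocator 2 (Gh_A06G1287), moves sugar phosphate into plastids and had 2.68, 5.52 and 4.54 CPM in WS48 and 0.244, 1.43 and 0.367 CPM in WW24. Its log2 fold change was 2.72 ± 0.59 with replicate 2 and 3.72 ± 0.60 without it (adjusted p = 0.0103 and 0.00109, edgeR). Of 9 aquaporins, the water channels of plant membranes, 8 fell and 1 rose, and without replicate 2 the fallers were 6. The delta tonoplast integral protein gene Gh_D03G0583, of a channel in the vacuole membrane, had 639, 474 and 557 CPM in WS48 and 2923, 3238 and 2632 CPM in WW24 (log2 fold change -2.40 ± 0.19, adjusted p = 1.12e-05, edgeR). Its WW24 libraries were close to each other.

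Of 32 metal and ion carriers, 17 rose in both fits, and 8 fell with all libraries and 5 without WW24 replicate 2. ZRT/IRT-like protein 2 (Gh_D05G0913), of a family that takes up zinc and iron, had 86.9, 78.2 and 81.2 CPM in WS48 and 0.367, 9.90 and 1.19 CPM in WW24. Replicate 2 was over 2-fold above the other controls, and the log2 fold change was 4.53 ± 0.65 with it and 6.61 ± 0.30 without it (adjusted p = 0.000917 and 5.64e-08, edgeR). YELLOW STRIPE like 3 (Gh_A03G0438), a carrier of metals bound to nicotianamine, had 29.7, 39.1 and 32.2 CPM in WS48 and 0.733, 4.16 and 1.93 CPM in WW24. The groups did not overlap (log2 fold change 3.93 ± 0.38 with replicate 2 and 4.59 ± 0.31 without it, adjusted p = 5.63e-05 and 1.05e-06, edgeR). High affinity K+ transporter 5 (Gh_D12G0090) had 42.9, 46.8 and 47.8 CPM in WS48 and 9.29, 1.43 and 9.72 CPM in WW24. Here replicate 2 was the low control, and the rise on the log2 scale was 2.71 ± 0.40 with it and 2.27 ± 0.14 without it (adjusted p = 0.00102 and 5.15e-07, edgeR). Copper transporter 1 (Gh_D03G1150) had 13.4, 9.98 and 12.5 CPM in WS48 and no WW24 read, and was at least 103-fold higher.

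Nitrogen carriers split, with 7 higher and 11 lower of 21 (8 and 10 without WW24 replicate 2). Nitrate transporter 1.1 (Gh_A12G2001), a carrier and sensor of nitrate in Arabidopsis, had 60.5, 53.6 and 58.7 CPM in WS48 and 9.41, 10.9 and 11.9 CPM in WW24, a log2 fold change of 2.42 ± 0.18 (adjusted p = 7.78e-06, edgeR) that was 2.43 ± 0.19 without replicate 2. Nitrate transporter 1.5 (Gh_A03G0028), which in Arabidopsis loads nitrate into the xylem, had 1.05, 0.713 and 0.106 CPM in WS48 and 8.06, 1.29 and 6.97 CPM in WW24. Replicate 2 lay just above the highest WS48 library, and the fall on the log2 scale was -3.09 ± 0.63 with it and -3.52 ± 0.41 without it (adjusted p = 0.00732 and 9.71e-05, edgeR). Of 9 phosphate starvation genes, 5 rose in both fits, among them purple acid phosphatase 10 (Gh_A06G1838; log2 fold change 3.74 ± 0.29, adjusted p = 9.79e-06, edgeR), while 3 fell with all libraries and 1 without replicate 2. Of 12 sulfur genes, 8 fell and 1 rose (7 and 1 without replicate 2), and sulfate transporter 3;1 (Gh_D12G0026) fell by 2.98 ± 0.32 on the log2 scale (adjusted p = 0.000109, edgeR).

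Cell wall genes divided by family. Of 12 expansins, proteins that loosen walls without cutting them, 7 rose and 4 fell (6 and 4 without WW24 replicate 2). Expansin A10 (Gh_D13G0786) had 17.7, 11.7 and 16.6 CPM in WS48 and 1.34, 0 and 1.1 CPM in WW24 (log2 fold change 4.12 ± 0.45 with replicate 2 and 3.66 ± 0.27 without it; adjusted p = 0.000132 and 1.8e-06, edgeR). Expansin 12 (Gh_A01G0477) went the other way, with 0, 2.14 and 0.95 CPM in WS48 and 8.55, 32.7 and 18.2 CPM in WW24 (log2 fold change -4.22 ± 0.66, adjusted p = 0.00161, edgeR). The xyloglucan enzymes, which cut and rejoin the tethers between cellulose fibrils, went one way, with 10 of 12 lower and 0 higher (9 and 0 without replicate 2). Xyloglucan endotransglucosylase/hydrolase 16 (XTH16, Gh_D02G0220) had 75.7, 95.4 and 80.9 CPM in WS48 and 248, 1216 and 406 CPM in WW24. Replicate 2 was the highest by far, and the log2 fold change was -2.89 ± 0.49 with it and -1.95 ± 0.28 without it (adjusted p = 0.00269 and 0.00045, edgeR). Of 41 pectin enzymes, 21 rose and 12 fell (20 and 9 without replicate 2), and of 8 cellulases and cellulose synthase-like genes 7 rose and 1 fell (6 and 1). Cellulase 3 (Gh_A05G2362) had 37.1, 33.1 and 42.0 CPM in WS48 and 14.3, 11 and 12.8 CPM in WW24, with WW24 replicate 2 just under the others (log2 fold change 1.55 ± 0.18, adjusted p = 0.000197, edgeR).

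Among lignin enzymes the count of calls moved with WW24 replicate 2, with 8 of 17 lower and 1 higher with it and 3 lower and 1 higher without it. Laccases, the oxidases that link lignin units in xylem walls, are the members shown here, and they are also among the xylem markers. Laccase 14 (Gh_A05G2115) had 21.7, 29.1 and 23.2 CPM in WS48 and 119.9, 312 and 140.3 CPM in WW24, and its fall passed the test with and without replicate 2 (log2 fold change -2.95 ± 0.39 and -2.39 ± 0.26, adjusted p = 0.000525 and 6.46e-05, edgeR). Laccase 7 (Gh_A04G0744) had 6.12, 5.70 and 7.28 CPM in WS48 and 9.16, 66.3 and 18.3 CPM in WW24. Its log2 fold change was -2.28 ± 0.55 with replicate 2 and -1.12 ± 0.30 without it (adjusted p = 0.018 and 0.0197, edgeR), and it was called in 3 of the 6 fits that leave out 1 library. The member that rose, a hydroxycinnamoyl-CoA shikimate/quinate hydroxycinnamoyl transferase (Gh_D05G0541), works earlier in the phenylpropanoid pathway and had 14.4, 22.3 and 12.0 CPM in WS48 and 4.52, 1.86 and 2.48 CPM in WW24 (2.45 ± 0.30, adjusted p = 0.000289, edgeR).

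**Figure D4:**
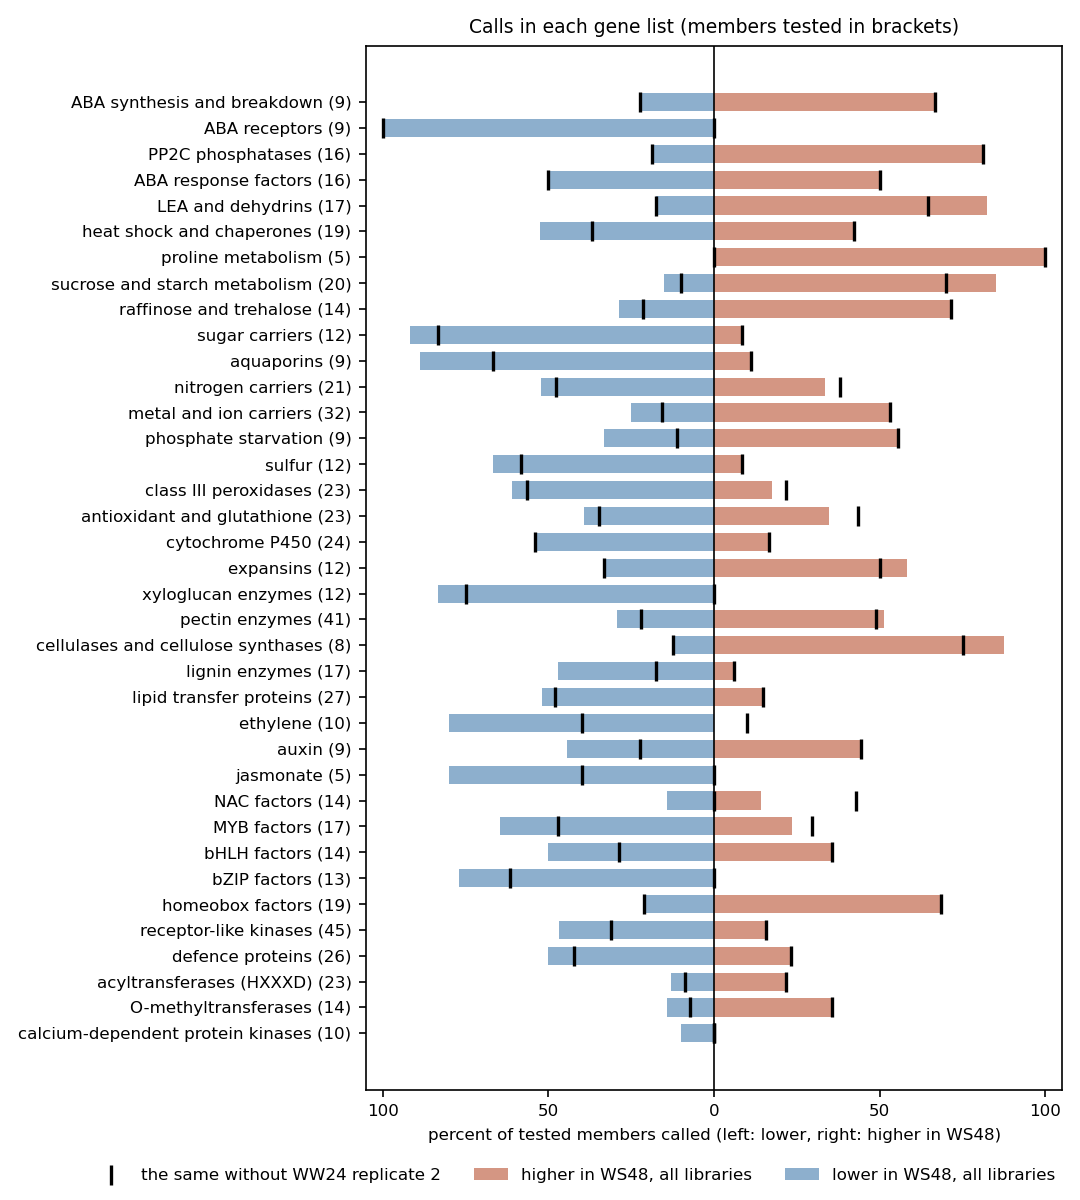
Share of the tested members of each gene list that were called higher (right) or lower (left) in WS48, as bars with all libraries and as black ticks without WW24 replicate 2; the number tested stands in brackets. The ticks sit at the bar ends for the ABA lists, proline and cytochrome P450, and fall well short of the bars on the lower side for lignin enzymes, ethylene and jasmonate. Equal shares need not be the same genes, as for cytochrome P450.

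Xylem and phloem markers were lower in sum in WS48, and highest among the WW24 libraries in replicate 2. The summed level of 12 xylem markers was 98.9 to 164 CPM in WS48, against 254 and 352 CPM in WW24 replicates 1 and 3 and 1048 CPM in replicate 2, and none of the 12 was at 0 in any of these libraries. In well-watered roots at 48 h (WW48) the sum was 770 to 1454 CPM, so that WW24 replicate 2 lay within the range of the WW48 libraries for these markers. For the other marker lists it lay outside that range, above WW48 for phloem, root hair, dividing cells and photosynthetic tissue and below it for the gene of the root cap list. With all libraries 8 of the 12 fell and 0 rose, and without replicate 2 the fallers were 3. FASCICLIN-like arabinogalactan-protein 12 (Gh_A07G1070), a protein of secondary walls, had 0.957, 1.07 and 0.739 CPM in WS48 and 1.59, 8.46 and 2.11 CPM in WW24. Its fall passed the test with replicate 2 (log2 fold change -2.07 ± 0.55, adjusted p = 0.028, edgeR) and had a value of -0.99 ± 0.33 without it (adjusted p = 0.0565, edgeR).

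Phloem markers summed to 137 to 144 CPM in WS48, against 334 and 356 CPM in WW24 replicates 1 and 3 and 658 CPM in replicate 2. Of 29 such genes 2 to 6 were at 0 in the WS48 libraries and 3 to 5 in the WW24 libraries. Of the 21 tested, 6 fell and 1 rose in both fits. The 7 in the study's table of changed transcripts gave 5 lower and 0 higher calls (median log2 fold change -3.05). The 14 tested outside that table gave 1 lower and 1 higher call (median 0.19), so a fall was not seen in them as a group. Sucrose-proton symporters belong to this list and to the sugar carriers above. Phloem protein 2-A12 (Gh_D05G2690), a lectin of sieve elements, had 3.44, 3.03 and 3.17 CPM in WS48 and 15.4, 34.4 and 17.7 CPM in WW24 (log2 fold change -2.80 ± 0.29, adjusted p = 8.46e-05, edgeR). The sum of 5 root hair genes was 159 to 207 CPM in WS48, 193 and 232 CPM in WW24 replicates 1 and 3, and 604 CPM in replicate 2, so that the WS48 sums overlapped the lowest WW24 library. Of these 5 genes 3 rose and 1 fell (2 and 1 without replicate 2; median log2 fold change 1.02 with all libraries). RHD SIX-LIKE 1 (Gh_D07G2426), a bHLH factor that starts root hair growth in Arabidopsis, rose by 1.81 ± 0.27, whereas root hair specific 13 (Gh_A07G1145) fell by 1.63 ± 0.37 on the log2 scale (adjusted p = 0.001 and 0.0131, edgeR). Without replicate 2 the change of root hair specific 13 was -1.02 ± 0.26 (adjusted p = 0.0147, edgeR).

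The dividing cell genes were higher in sum in WS48, though they split in direction. The dividing cell genes summed to 1017, 860 and 1022 CPM in WS48 and to 565, 738 and 545 CPM in WW24, and 8 of 16 rose and 7 fell (7 and 2 without WW24 replicate 2). Tubulin beta 8 (Gh_D03G1455), a subunit of microtubules and among the genes that rose, had 125, 94.5 and 118 CPM in WS48 and 48.9, 21.1 and 36.0 CPM in WW24 (log2 fold change 1.67 ± 0.23, adjusted p = 0.000736, edgeR). The genes of this list that fell are not shown. Root cap 1 (Gh_D11G2295) was the only gene of the root cap list, taken by its name, and was not shown to mark root cap cells. It had 6.03, 7.13 and 7.49 CPM in WS48 and 2.20, 0.717 and 2.57 CPM in WW24, with replicate 2 the lowest (1.86 ± 0.31, adjusted p = 0.00235, edgeR). In whole tips a smaller share of a cell type and less RNA per cell cannot be told apart, and neither can stress and the shorter 6 mm piece of WS48. The part of tissue make-up in the gene groups of this comparison was not tested.

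**Figure D5:**
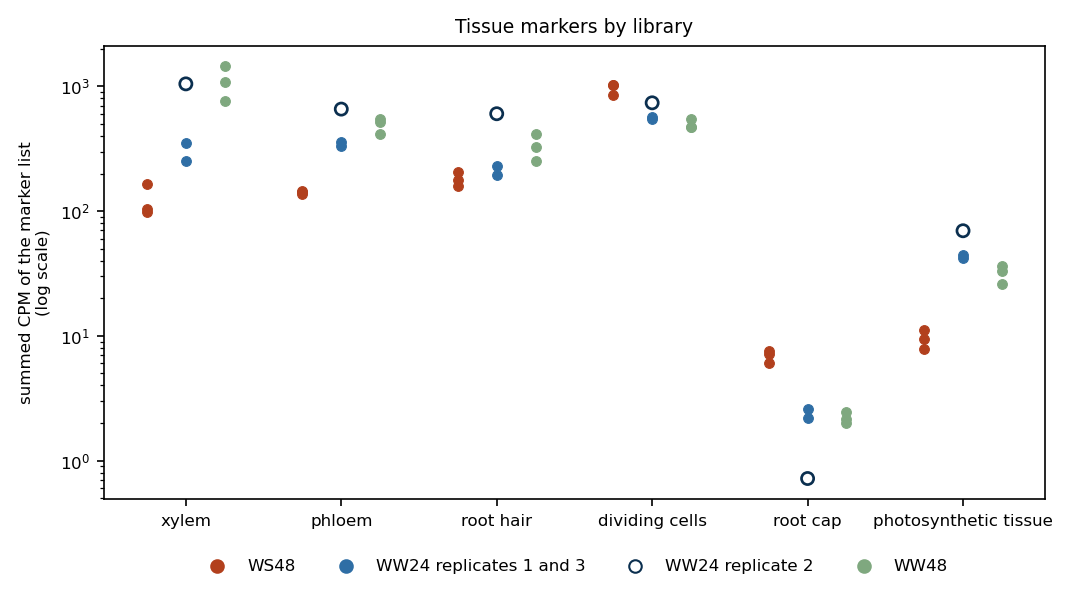
Summed CPM of 6 lists of tissue markers in each library of WS48, WW24 and WW48, on a log scale, with WW24 replicate 2 as an open circle. The root cap list holds 1 gene, taken by its name. WW24 replicate 2 lies above the other WW24 libraries for xylem, phloem, root hair, dividing cells and photosynthetic tissue and below them for the gene of the root cap list, and for xylem it lies at 1048 CPM, within the 770 to 1454 CPM of WW48.

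Among redox and defence genes, the peroxidases, cytochromes P450 and defence proteins were more often lower than higher. This was also so for all 1545 tested genes with a function (716 lower and 510 higher), so it is not particular to these families. Of 23 class III peroxidases, which use hydrogen peroxide in the wall, 14 fell and 4 rose (13 and 5 without WW24 replicate 2). Peroxidase 2 (Gh_A11G3132) had 30.5, 21.4 and 26.5 CPM in WS48 and 201, 118 and 222 CPM in WW24 (log2 fold change -2.79 ± 0.30, adjusted p = 0.000135, edgeR). A peroxidase that rose (Gh_A12G2370) had 28.7, 26.2 and 24.7 CPM in WS48 and 2.20, 13.2 and 1.74 CPM in WW24. Replicate 2 was its high control, and the rise was 2.28 ± 0.57 with it and 3.77 ± 0.32 without it on the log2 scale (adjusted p = 0.0216 and 6.48e-06, edgeR). When any other of the 6 libraries was left out, this gene missed the threshold, with an adjusted p of up to 0.0607. Cytochromes P450 numbered 13 lower and 4 higher of 24 in both fits, though the higher genes were not all the same. In the study's table of changed transcripts 4 were higher with all libraries and 3 without replicate 2, and outside it 0 and 1. The 76G1 member (Gh_A11G2871) had 0.0957, 0.446 and 0.106 CPM in WS48 and 18.6, 103 and 26.6 CPM in WW24 (log2 fold change -7.69 ± 0.88 with replicate 2 and -6.57 ± 0.54 without it). Its adjusted p was 0.000189 and 5e-06 (edgeR).

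Of 23 antioxidant and glutathione genes, 8 rose and 9 fell, and without WW24 replicate 2 the numbers were 10 and 8. Fe superoxide dismutase 2 (Gh_D07G0457), which converts superoxide in plastids, had 35.8, 41.7 and 36.7 CPM in WS48 and 2.69, 5.16 and 3.30 CPM in WW24 (log2 fold change 3.37 ± 0.24, adjusted p = 6.4e-06, edgeR). Of 26 defence proteins, 13 fell and 6 rose (11 and 6). A basic chitinase (Gh_D02G2286), an enzyme against fungal walls, had no read in the WS48 libraries and 2.81, 11.8 and 4.13 CPM in WW24, so that it was at least 59.8-fold lower, and at least 37.0-fold lower without replicate 2 (adjusted p = 0.000687 and 4.64e-05, edgeR).

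Genes of ethylene, jasmonate and auxin were the hormone groups in which WW24 replicate 2 weighed most. Of 10 ethylene genes, 8 fell and 0 rose with it, and 4 fell and 1 rose without it. A 1-aminocyclopropane-1-carboxylic acid (ACC) synthase 6 gene (Gh_D11G0221), of the enzyme that limits ethylene synthesis, had 2.39, 2.14 and 2.85 CPM in WS48 and 6.48, 45.2 and 15.5 CPM in WW24. Its fall passed in both fits, at a log2 fold change of -3.17 ± 0.64 with replicate 2 and -2.17 ± 0.48 without it (adjusted p = 0.00684 and 0.00715, edgeR). Of 5 jasmonate genes, 4 fell with replicate 2 and 2 without it. Jasmonate-zim-domain protein 6 (Gh_A10G2244), a repressor in the jasmonate pathway, had 19.7, 19.8 and 16.4 CPM in WS48 and 33.5, 67.3 and 30.3 CPM in WW24. Its log2 fold change was -1.22 ± 0.27 with replicate 2 and -0.77 ± 0.16 without it, with an adjusted p under the threshold in both (0.0103 and 0.00496, edgeR), so that it was lost on the size of the change. Of 9 auxin genes, 4 rose and 4 fell (4 and 2). Indoleacetic acid-induced protein 16 (Gh_D08G2503), an Aux/IAA repressor, had 8.32, 11.6 and 7.92 CPM in WS48 and 0.611, 0.287 and 0.275 CPM in WW24 (4.55 ± 0.33, adjusted p = 7.78e-06, edgeR). A GH3 gene (Gh_D11G2945), of a family that conjugates auxin, had 2.49, 1.78 and 2.43 CPM in WS48 and 5.86, 43.7 and 12.3 CPM in WW24, and its fall passed in both fits (-3.19 ± 0.65 and -2.04 ± 0.42, adjusted p = 0.0075 and 0.00485, edgeR).

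Transcription factor families differed in direction. Of all 1545 tested genes with a function, 716 were lower and 510 higher. An excess of lower over higher calls is therefore not in itself particular to a family below. Of 19 homeobox genes 13 rose and 4 fell in both fits. Homeobox 7 (Gh_A07G1237), whose Arabidopsis counterpart is induced by ABA and water deficit, had 16.5, 18.5 and 17.7 CPM in WS48 and 1.47, 5.31 and 1.56 CPM in WW24. Replicate 2 was its high control, and the rise on the log2 scale was 2.72 ± 0.39 with it and 3.53 ± 0.27 without it (adjusted p = 0.000867 and 2.64e-06, edgeR). Of 13 bZIP genes 10 fell and 0 rose (8 and 0 without replicate 2), among them basic leucine-zipper 2 (Gh_A11G1675; log2 fold change -1.83 ± 0.32 with replicate 2 and -1.22 ± 0.16 without it, adjusted p = 0.00316 and 0.000235, edgeR). Of 17 MYB genes 11 fell and 4 rose (8 and 5), and of 14 bHLH genes 7 fell and 5 rose (4 and 5). The NAC genes changed most in kind, with 2 higher and 2 lower of 14 with all libraries, and 6 higher and 0 lower without replicate 2. Of the 10 NAC genes outside the study's table of changed transcripts, 0 passed in either direction with all libraries and 4 were higher without replicate 2. NAC domain containing protein 100 (Gh_D11G0743) had 8.03, 9.89 and 6.44 CPM in WS48 and 1.34, 9.75 and 2.38 CPM in WW24. Replicate 2 lay within the range of the WS48 libraries, and the log2 fold change was 0.91 ± 0.55 with it (adjusted p = 0.321, edgeR) and 2.09 ± 0.42 without it (adjusted p = 0.00405, edgeR). In WW48 this gene had 14.9, 21.9 and 7.72 CPM. Of 45 receptor-like kinases, 21 fell and 7 rose, and without replicate 2 the fallers were 14. Of the 16 tested outside the study's table of changed transcripts, 2 fell with all libraries and 0 without replicate 2. A leucine-rich repeat kinase (Gh_A05G0844) had 0.287, 0.535 and 0.211 CPM in WS48 and 8.06, 13.3 and 9.08 CPM in WW24, a fall of -4.80 ± 0.35 on the log2 scale (adjusted p = 7.78e-06, edgeR).

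Single genes show how a call turned on WW24 replicate 2. Nitrate transporter 1.7 (Gh_A04G0836), which in Arabidopsis loads nitrate into the phloem, had 16.5, 11.8 and 15.9 CPM in WS48 and 1.71, 13.9 and 4.49 CPM in WW24. It was not called with all libraries (log2 fold change 1.17 ± 0.49, adjusted p = 0.144, edgeR), since replicate 2 lay within the WS48 range, and was higher without it (2.20 ± 0.32, adjusted p = 0.000518, edgeR). Glycerol-3-phosphate acyltransferase 6 (Gh_D10G1343), of a family that makes cutin precursors, had 7.17, 7.31 and 7.18 CPM in WS48 and 0.244, 5.02 and 1.28 CPM in WW24 (1.79 ± 0.65 with replicate 2, 3.13 ± 0.57 without it; adjusted p = 0.0922 and 0.00229, edgeR). On the higher side, calls were lost where replicate 2 was the low control. Expansin A15 (Gh_D02G1269) had 25.1, 18.4 and 26.4 CPM in WS48 and 11.6, 2.15 and 12.0 CPM in WW24, and its log2 fold change was 1.41 ± 0.41 with replicate 2 and 0.98 ± 0.20 without it (adjusted p = 0.0393 and 0.00522, edgeR). The cellulase glycosyl hydrolase 9B8 (Gh_A07G0769) behaved alike, at 1.34 ± 0.33 and 0.97 ± 0.18. All WS48 libraries stayed above all WW24 libraries at both of these genes.

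On the lower side, calls were lost where replicate 2 was the high control. An NAD(P)-linked oxidoreductase gene (Gh_D04G1630) had 0.765, 0.535 and 0.739 CPM in WS48 and 1.1, 12.9 and 2.84 CPM in WW24. Its log2 fold change was -2.98 ± 0.88 with replicate 2 and -1.57 ± 0.73 without it (adjusted p = 0.0428 and 0.156, edgeR). An HXXXD-type acyltransferase gene (Gh_A12G1822) had 0.478, 0 and 0.211 CPM in WS48 and 0.489, 9.32 and 1.47 CPM in WW24 (-3.93 ± 1.03 and -2.10 ± 0.75, adjusted p = 0.0264 and 0.0688, edgeR). A lipid-transfer protein gene (Gh_D11G1588) was gained as lower, with 13.8, 15.2 and 13.9 CPM in WS48 and 51.3, 9.47 and 48.3 CPM in WW24, where replicate 2 alone lay under the WS48 libraries (-1.35 ± 0.46 with it and -1.79 ± 0.25 without it, adjusted p = 0.0754 and 0.000318, edgeR).

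The genes at which WW24 replicate 2 lay farthest from its mates are given as a description, since they were chosen for that distance. An aspartyl protease gene (Gh_D05G0628) had 93.4, 86.3 and 98.2 CPM in WS48 and 69.6, 573 and 118 CPM in WW24, and its log2 fold change moved to -0.01 without replicate 2, against -1.45 with it. A peroxidase outside the study's table (Gh_A03G0199) had 98.4, 127 and 88.0 CPM in WS48 and 45.6, 565 and 117 CPM in WW24. Without replicate 2 its log2 fold change was 0.37 in place of -1.21. Ribonuclease 1 (Gh_A12G1513), which in Arabidopsis is induced by phosphate starvation, had 92.0, 88.9 and 82.4 CPM in WS48 and 0.611, 13.9 and 2.02 CPM in WW24, and even the high control lay far under the WS48 libraries (log2 fold change 4.07 with replicate 2 and 5.97 without it). GATA transcription factor 12 (Gh_D06G0967) was an example of the opposite kind, with 69.9, 55.7 and 65.3 CPM in WS48 and 38.1, 6.17 and 37.0 CPM in WW24.

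WS48 replicate 2 also stood apart at some higher genes. It lay over 2-fold above both other WS48 libraries at 155 of the 1569 higher genes, against 1 for replicate 1 and 4 for replicate 3, and without it 1112 genes were higher and 1201 lower. Glutathione S-transferase TAU 8 (Gh_A09G1510), a detoxifying enzyme, had 1.82, 53.4 and 2.32 CPM in WS48 and 0.489, 0.861 and 0.183 CPM in WW24. Its log2 fold change was 5.32 ± 1.39 with all libraries (adjusted p = 0.0258, edgeR) and 2.10 without WS48 replicate 2 (adjusted p = 0.151, edgeR). O-methyltransferase 1 (Gh_A12G2188) had 2.39, 28.5 and 3.8 CPM in WS48 and 0, 0.430 and 0 CPM in WW24, and stayed called without WS48 replicate 2 (log2 fold change 4.57, adjusted p = 0.0147, edgeR), though its level in WS48 replicate 2 was far above the others. Its only WW24 reads came from WW24 replicate 2, so that without WW24 replicate 2 it was at 0 in the control. Of the 6 fits that leave out 1 library, 3 called the transferase TAU 8 and 6 called O-methyltransferase 1.

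Of 196 genes tested that have a function but are not in the study's table of changed transcripts, 10 rose and 10 fell (over all genes tested, 3.57% and 3.9%), and without WW24 replicate 2 the numbers were 19 and 11 (5.71% and 2.92% over all genes). UDP-glucosyl transferase 85A2 (Gh_D13G0523) had 14.3, 15.8 and 15.4 CPM in WS48 and 5.25, 1.86 and 5.04 CPM in WW24 (log2 fold change 1.87 ± 0.29, adjusted p = 0.00133, edgeR). Its level in WW48 was 12.2, 8.28 and 12.6 CPM, under that of WS48 and above that of WW24.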

How the data were processed

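The deposited table holds counts of reads per gene for 70477 genes in 12 libraries, which the authors made, per the submitters' processing notes and the methods, by aligning reads to the genome of upland cotton with HISAT2 1.0 and counting them with HTSeq 0.6.1. No source used here states whether the counting used strand, and reads of near-identical A and D copies of a gene can be split between them. A second set of 12 columns holds a score, counts that the authors normalized by TMM and rounded, and was not used. The 4 lines that name no gene were left out, and 62.6 to 68.8% of the counts of the 6 libraries lay in genes.

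Genes kept by edgeR's filter (minimum count 10, total 15; 43938 genes) were fitted in one quasi-likelihood model of all 12 libraries with TMM scaling (R 4.3.3, edgeR 4.0.16), with the contrast WS48 minus WW24, two-sided, and Benjamini-Hochberg adjustment over all genes tested. A gene was called at an adjusted p of at most 0.05 and a change of 1 or more in size on the log2 scale. The fit without WW24 replicate 2 kept the same genes. The values after ± are SEs derived from the test. Each is the size of the log2 fold change divided by the square root of its quasi-likelihood F statistic. They were not estimated by the model directly. Levels are TMM-scaled CPM and are not compared between genes. Fold changes against a group with no read are lower bounds from 3 counts over that group, and with 1 to 3 counts a ratio with its exact 95% counting interval is given. These cover counting error only.

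Gene functions came from the study's tables, 1 of which was held only in part (1766 genes, of which 1353 are in the table of changed transcripts). No sequence is shown, since 0 cotton IDs matched the reference gene table. Genes were named by a rule on the smaller fold of the fits with and without WW24 replicate 2, with up to 4 called genes in each list (all tested members of small lists), the genes with a function that were lost or gained with the largest fold, those at which replicate 2 lay farthest from its mates, and the leading genes outside the study's table or without a function. Members and lists were chosen with earlier results of these data known. The p-values rest on the spread between samples within groups, estimated over all 12 libraries, so libraries outside the comparison enter it too. Alternatives were limma-voom with and without quality weights (limma 3.58.1), DESeq2 1.42.0, other scalings, filters and tests, a replicate block, and leaving out each library.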

Additional observations from a re-analysis of the deposited data

How the results depend on the processing

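The number of higher genes (1569) became 2757 with limma-voom and quality weights, 880 when the 6 libraries were fitted alone, 2517 when they were fitted alone without WW24 replicate 2, 830 at an adjusted p of 0.01 and 379 with glmTreat, which tests against the fold threshold itself. The number of lower genes (1713) became 911 with the 6 libraries alone, 963 at an adjusted p of 0.01 and 346 with glmTreat. Leaving out 1 library at a time gave 1112 to 2507 higher and 1198 to 2273 lower genes, the highest counts being those without WW24 replicate 2 (higher) and without WW24 replicate 1 (lower). Scaling by library size alone gave the split stated above (63.2% higher against 47.8%), and the share was 62.4% with quality weights and 38.6% and 39.5% without WW24 replicates 1 and 3. Of 231 named genes, 208 were called, 151 of them under every alternative but glmTreat and 124 under glmTreat too, and 0 reversed direction. The main model held no pairing by replicate number. The correlations of deviations from the group mean between same-numbered WS48 and WW24 libraries were 0.0718, 0.135 and 0.128. Each WS48 library and 2 of the 3 WW24 libraries correlated best with their own number. Whether the replicate numbers pair the samples by experiment was not tested. With the replicate number as a block, 1735 genes were higher and 1683 lower, and with the block and without WW24 replicate 2 the numbers were 2194 and 1235. At 3 libraries a side, the spread of WW24 rests largely on how replicate 2 is treated, and whether its distance is technical or biological was not tested.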

Other observations

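Genes of the A and D subgenomes were called at similar rates. Of 21274 A genes tested 753 were higher in WS48 (3.54%) and 822 lower (3.86%), and of 22018 D genes 801 were higher (3.64%) and 856 lower (3.89%). A further 646 genes on unplaced scaffolds gave 15 higher and 35 lower calls. Without WW24 replicate 2 the numbers were 1212 higher and 599 lower for A, 1268 and 659 for D, and 27 and 26 for unplaced genes. Among genes with no function in the study's tables, Gh_D06G1716 and Gh_D10G0818 had no read in WW24 and were at least 33.7-fold and 31.0-fold higher in WS48 (24.7-fold and 22.7-fold without WW24 replicate 2), and Gh_A07G0630 and Gh_A09G0021 had no read in WS48 and were at least 19.5-fold and 23.1-fold lower (at least 13.1-fold and 21.2-fold without WW24 replicate 2).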
